A study of Mus musculus with 26 samples.

Results

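Brown and beige adipocytes burn fuel for heat, and 8 genes that mark them were followed through mesenteric arteries of mice: Ucp1, Cidea, Elovl3, Dio2, Ppargc1a, Cox8b, Cpt1b and Cox7a1. They were chosen by symbol in the authors' normalized table, which lists 21031 of the 57010 genes in the counts table, those with over 50 counts in all. That table holds 6 of the 8. Ucp1, with 4 counts over all 26 libraries, and Elovl3, with 12, were read from the counts table instead.

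In brown fat, the signal of cold reaches the adipocyte through beta-adrenergic receptors and cAMP. It frees fatty acids, which mitochondria oxidise, and uncoupling protein 1 (Ucp1) lets the resulting proton gradient run down as heat. Beige adipocytes run the same program inside white depots. Mesenteric arteries are embedded in mesenteric fat, so adipocytes can come along when the vessels are dissected. The 8 genes differ in how far they are tied to thermogenic fat. Ucp1 is found almost only there, whereas Ppargc1a, Cpt1b, Cox7a1 and Cox8b are also known from striated muscle, and Dio2 is used by several tissues that make their own active thyroid hormone.

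RNA was sequenced from mesenteric arteries of male mice aged 8 weeks, 1 library per vessel sample. The controls were 3 wild-type (WT) libraries for 3 libraries of a global knockout of Panx1 (Panx1 KO), which encodes a channel that releases ATP. The other mutants carry a changed residue of that channel, and each line has controls whose genotype is given as -/- and mutants whose genotype is given as +/+ for the change: 3 Y198F controls (Y198F-/-) and 3 Y198F (Y198F+/+), 4 S205A controls (S205A-/-) and 4 S205A (S205A+/+), and 3 Y308F controls (Y308F-/-) and 3 Y308F (Y308F+/+). The labels describe the controls as littermates or WT animals, name no inducible or cell-specific allele, and give 3 vascular trees a genotype, fewer than the 4 libraries of each S205A group. They do not say that every library is a separate animal, so p-values measure the spread between libraries.

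Total counts ran from 14895969 in S205A 2 to 23617902 in Y308F 2. Panx1 itself had 61 to 96 counts in the WT libraries and 11 to 27 in the Panx1 KO libraries. In the other groups it had 16 to 95, and S205A control 1, at 16, lay within the knockout range. Summed smooth muscle markers ran from 18420 to 38325 CPM (counts scaled to library size, here with TMM factors over all 26 libraries), led by Myh11, and summed endothelial markers from 920.3 to 6996 CPM, led by Pecam1. The library names divide the set: 9 carry a number that begins with 22 (the 22 series), namely all 3 Y198F, S205A controls 1 to 3 and S205A 2 to 4, and the other 17 do not. The labels do not explain the number. Only the S205A line holds both kinds in each group, and in the Y198F line the mutation and the series cannot be told apart.

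Dio2 and Ppargc1a were the members with the most counts, and both are known targets of cAMP signalling in brown fat, so their promoters are shown. Each is the 250 bases before the RefSeq start site, from RefSeq's promoter table (GRCm38.p6), matched exactly and at 1 place to GRCm39: Dio2 at chr12:90705813-90706062 on the minus strand and Ppargc1a at chr5:51725068-51725317 on the minus strand. Capitals mark the cAMP response element (CRE) TGACGTCA in Dio2 and its half-site TGACG, here on the opposite strand as CGTCA, in Ppargc1a.
Dio2: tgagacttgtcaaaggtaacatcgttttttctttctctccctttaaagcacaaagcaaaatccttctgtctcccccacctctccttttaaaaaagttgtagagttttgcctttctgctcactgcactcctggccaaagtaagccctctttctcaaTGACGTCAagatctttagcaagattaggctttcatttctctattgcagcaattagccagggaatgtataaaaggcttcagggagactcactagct
Ppargc1a: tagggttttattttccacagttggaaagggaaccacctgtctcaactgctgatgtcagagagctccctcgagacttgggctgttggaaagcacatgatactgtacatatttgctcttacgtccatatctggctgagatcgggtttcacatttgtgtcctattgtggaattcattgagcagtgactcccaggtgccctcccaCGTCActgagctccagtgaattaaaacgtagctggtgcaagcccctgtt

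The full CRE of Dio2 begins at position -95 from the start site and holds a half-site on each strand. Searched on both strands, this element occurs in 1.55% of 32851 mouse promoter windows of the same length. The half-site alone occurs in 17.8% of windows, among them Ppargc1a at position -49 and Ucp1 at position -147. The nuclear receptor half-site AGGTCA (14% of windows) was also found in Ucp1. The whole Ucp1 window lies downstream of the start GENCODE gives, inside the annotated gene. No window of the 5 members in the table (Ppargc1a, Cox7a1, Cox8b, Ucp1, Dio2) held the extended half-site TCAAGGTCA, which 0.387% of windows hold, or the direct repeat known as DR1, which 0.0335% hold. These are letter matches only.

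Ucp1 (ENSMUSG00000031710, chromosome 8 from 84016647 to 84025085, plus strand, GRCm39) was at or near 0. It had 1 count in Y198F control 1, 1 in Y308F 2 and 2 in Y308F 3, and no count in the other 23 libraries. The 4 counts amount to 0.00815 CPM over all libraries, unscaled (Wilson 95% interval 0.00317 to 0.0210). In single libraries a count of 0 allows up to 3 counts, or 0.127 to 0.196 CPM. Elovl3 (ENSMUSG00000038754, chromosome 19 from 46119917 to 46124133, plus strand), an elongase of very long fatty acids in cold-exposed brown fat, had 5 counts in WT 3, 4 in Y198F 3 and 1 each in Panx1 KO 3, Y308F control 1 and Y308F 2. The other 21 libraries had none. WT 3 and Y198F 3 were also the libraries with the highest summed white adipocyte markers. Intervals and floors cover counting error only.

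Of the 21 brown identity genes, 3 had a mean of at least 10 CPM over the 26 libraries, 5 lay from 1 to under 10, 12 lay above 0 and under 1, and 1 was at 0. Zic1, a marker of classical brown fat, was at 0 in all 26 libraries, and Lhx8 had 32 counts in all. The hormone Fgf21 had 16 counts. Prdm16, a transcription factor of brown and beige adipocytes that arterial cells use too, was detected at a mean of 121 CPM with a lowest library of 71.2. Ebf2, a factor of brown adipocyte precursors, had a mean of 3.97 CPM, and Tbx1, used as a beige marker, 3.72 CPM. The other beige markers of the list were lower, with means of 0.866 CPM for Tmem26, 0.772 for Epsti1, 0.638 for Cited1 and 0.117 for Tnfrsf9, which was at 0 in 13 libraries. Adrb3, the beta-3 adrenergic receptor of adipocytes, had a median of 14.9 CPM.

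The remaining 6 members were detected at low levels. Cidea (ENSMUSG00000024526, chromosome 18 from 67476317 to 67501224, plus strand), a lipid droplet protein, had a median of 3.23 CPM over the 26 libraries with a range of 0.412 to 12.4. Dio2 (ENSMUSG00000007682, chromosome 12 from 90691322 to 90705819, minus strand), the deiodinase that turns thyroxine into active thyroid hormone, had a median of 8.12 CPM and ranged from 1.19 to 30.4. Ppargc1a (ENSMUSG00000029167, chromosome 5 from 51611592 to 51725068, minus strand), the coactivator PGC-1 alpha that drives mitochondrial gene programs, had a median of 7.29 CPM and ranged from 3.09 to 13.4. Ppargc1a was the steadiest of the 6, with a coefficient of variation of 31.2%, against 70.0% for Dio2.

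The subunits and the transporter were lower still. Cox8b (ENSMUSG00000025488, chromosome 7 from 140477069 to 140480359, minus strand), a subunit of respiratory complex IV in muscle and brown fat, had a median of 0.560 CPM and ranged from 0 in S205A control 2 to 4.83 in WT 3. Its coefficient of variation, 128%, was the highest of the 6. Cox7a1 (ENSMUSG00000074218, chromosome 7 from 29883569 to 29885503, plus strand), another complex IV subunit of the same tissues, had a median of 1.05 CPM with a range of 0.413 to 2.44. Cpt1b (ENSMUSG00000078937, chromosome 15 from 89300606 to 89310239, minus strand), the muscle and brown fat form of the enzyme that loads fatty acids onto carnitine for entry into mitochondria, had a median of 0.879 CPM with a range of 0 to 1.36.

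Exons of Cidea, Elovl3, Dio2, Cox8b and Cox7a1 overlap a gene on the opposite strand in GENCODE vM39, and exons of Cpt1b overlap Gm44502 on its own strand. Whether the authors counted by strand is not given in the sources used here, so part of these low counts may belong to the neighbour. For Cox8b that neighbour is Psmd13 and for Elovl3 it is Pitx3.

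In 6 of the 8 families the thermogenic gene lay below every detected paralog in these arteries; Dio2 and Cidea were the exceptions. Compared per kilobase of exon, mean Cox8b was 0.350 CPM per kb against 142 for its widely used paralog Cox8a. Cox7a1 was at 1.85 CPM per kb, below Cox7a2 at 9.64 and Cox7a2l at 10.04. Cpt1b was at 0.190 CPM per kb, far below the liver-type form Cpt1a at 17.7 and the brain-type form Cpt1c at 4.20.

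Ucp1 stood at 0.00396 CPM per kb, against 2.46 for Ucp2 and 0.547 for Ucp3, related carriers of the same membrane. Elovl3 stood at 0.0103 CPM per kb, while its relatives Elovl5 and Elovl1 were at 23.6 and 19.8. Its lowest relative, Elovl2, was at 0.0116 CPM per kb with 24 counts in all, so the order of Elovl2 and Elovl3 rests on few counts. Cidea, at 1.54 CPM per kb, lay between Cidec, a lipid droplet gene of white fat at 17.2, and Cideb, a liver form at 0.0564. Dio2 was the leading deiodinase, at 1.47 CPM per kb against 0.109 for Dio3, the enzyme that inactivates thyroid hormone, with Dio1 at 0 in all libraries. Ppargc1a, at 1.07 CPM per kb, was near its paralog Ppargc1b at 1.57. These are levels from 1 set of libraries on a shared scale and carry no test.

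**Figure D1:**
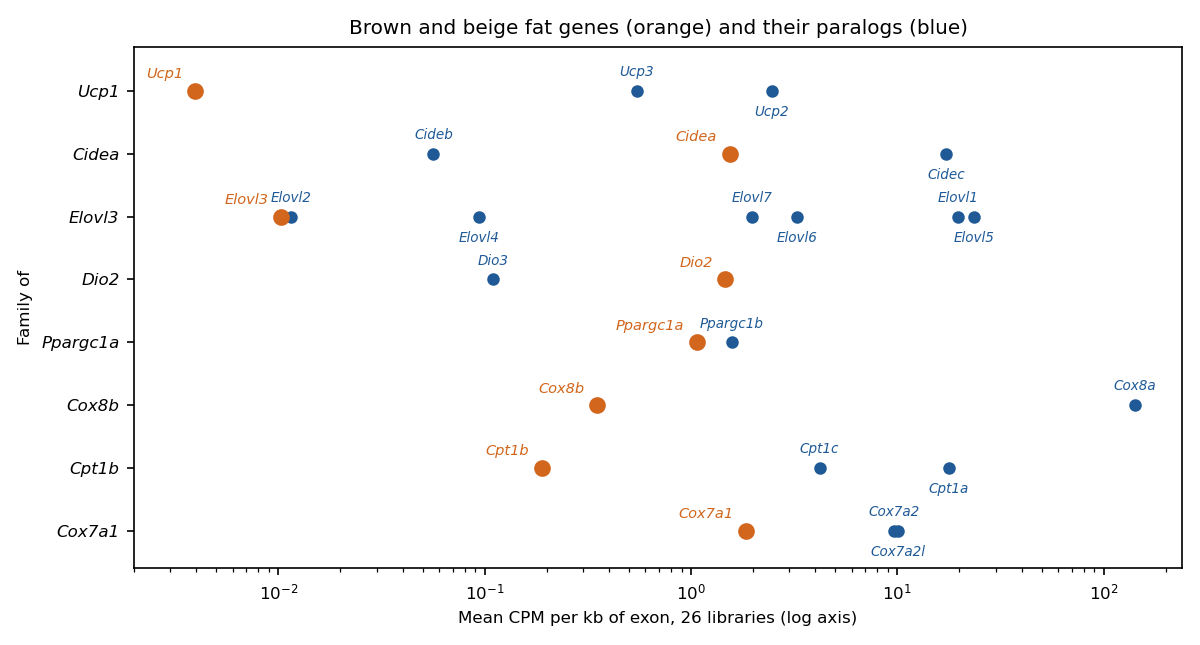
Mean level over 26 libraries, in CPM per kilobase of exon on a log axis, of each brown and beige fat gene (orange) and its paralogs (blue), 1 family a row. Cox8a, at 142, lies far to the right of Cox8b, at 0.350, and Dio2 is the only orange point to the right of every other detected member of its family.

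The 8 groups were ordered by mean CPM for the 6 detected members, as a description with no test. The mean of the highest group was 6.55 times that of the lowest for Cox8b, 4.56 times for Dio2, 3.16 times for Cpt1b, 2.75 times for Cidea, 1.61 times for Cox7a1 and 1.52 times for Ppargc1a. For each of the 6, the highest or the lowest group changed when 1 library or another was left out, an alternative chosen after seeing the data. The ratio moved by over 1.5 times for Cidea without WT 3 (to 1.65), for Cox8b without S205A 2 (to 10.6) and for Cpt1b without Y308F 1 (to 6.46). Neighbours in a sorted order are near each other by construction. For Cidea, Ppargc1a, Cox8b, Cpt1b and Cox7a1, none of the 7 gaps between neighbours exceeded the larger of the 2 groups' SDs. For Dio2, 1 of 7 did, that between Y308F at 8.16 CPM ± 2.42 (SD, n = 3) and Y198F at 5.11 ± 2.90 (SD, n = 3), and these 2 groups still overlapped in their libraries (5.41 the lowest of one, 7.67 the highest of the other). All Y198F libraries are of the 22 series and no Y308F library is, so group and series cannot be told apart in this gap. At the ends of the order, Dio2 ran from 14.2 CPM ± 0.616 (SD, n = 3) in Panx1 KO, through Y198F controls, S205A, WT, Y308F controls, Y308F and Y198F, to 3.12 ± 2.24 (SD, n = 4) in S205A controls. Without S205A 1 the S205A mean of Dio2 was 5.85 CPM, below that of Y308F.

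Ppargc1a was highest in Panx1 KO, at 8.94 CPM ± 0.685 (SD, n = 3), followed by S205A controls, Y198F controls, Y198F, S205A, Y308F controls and Y308F, and lowest in WT at 5.86 ± 0.835 (SD, n = 3). Cidea was highest in WT, at 6.23 CPM ± 5.40 (SD, n = 3), followed by S205A, Y198F, Y308F controls, Y198F controls, Panx1 KO and Y308F, and lowest in S205A controls at 2.26 ± 1.43 (SD, n = 4). Without WT 3 the WT mean of Cidea was 3.15 CPM, and S205A was highest at 3.73. Cox8b went from WT, at 1.99 CPM ± 2.48 (SD, n = 3), through Y198F, Y308F controls, Y198F controls, Y308F, S205A controls and Panx1 KO, to S205A at 0.304 ± 0.239 (SD, n = 4). Without WT 3 the WT mean of Cox8b was 0.572 CPM, and Y198F was highest at 1.60. The Y198F mean in turn was 0.881 CPM without Y198F 3, below that of Y308F controls at 1.29.

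Cpt1b was highest in Panx1 KO, at 1.15 CPM ± 0.203 (SD, n = 3), then came WT, Y198F controls, S205A controls, Y308F controls, S205A and Y198F, with Y308F lowest at 0.363 ± 0.331 (SD, n = 3). Cox7a1 went from 1.32 CPM ± 0.323 (SD, n = 3) in Y198F, through S205A controls, WT, Y198F controls, Panx1 KO, S205A and Y308F, to 0.819 ± 0.408 (SD, n = 3) in Y308F controls.

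**Figure D2:**
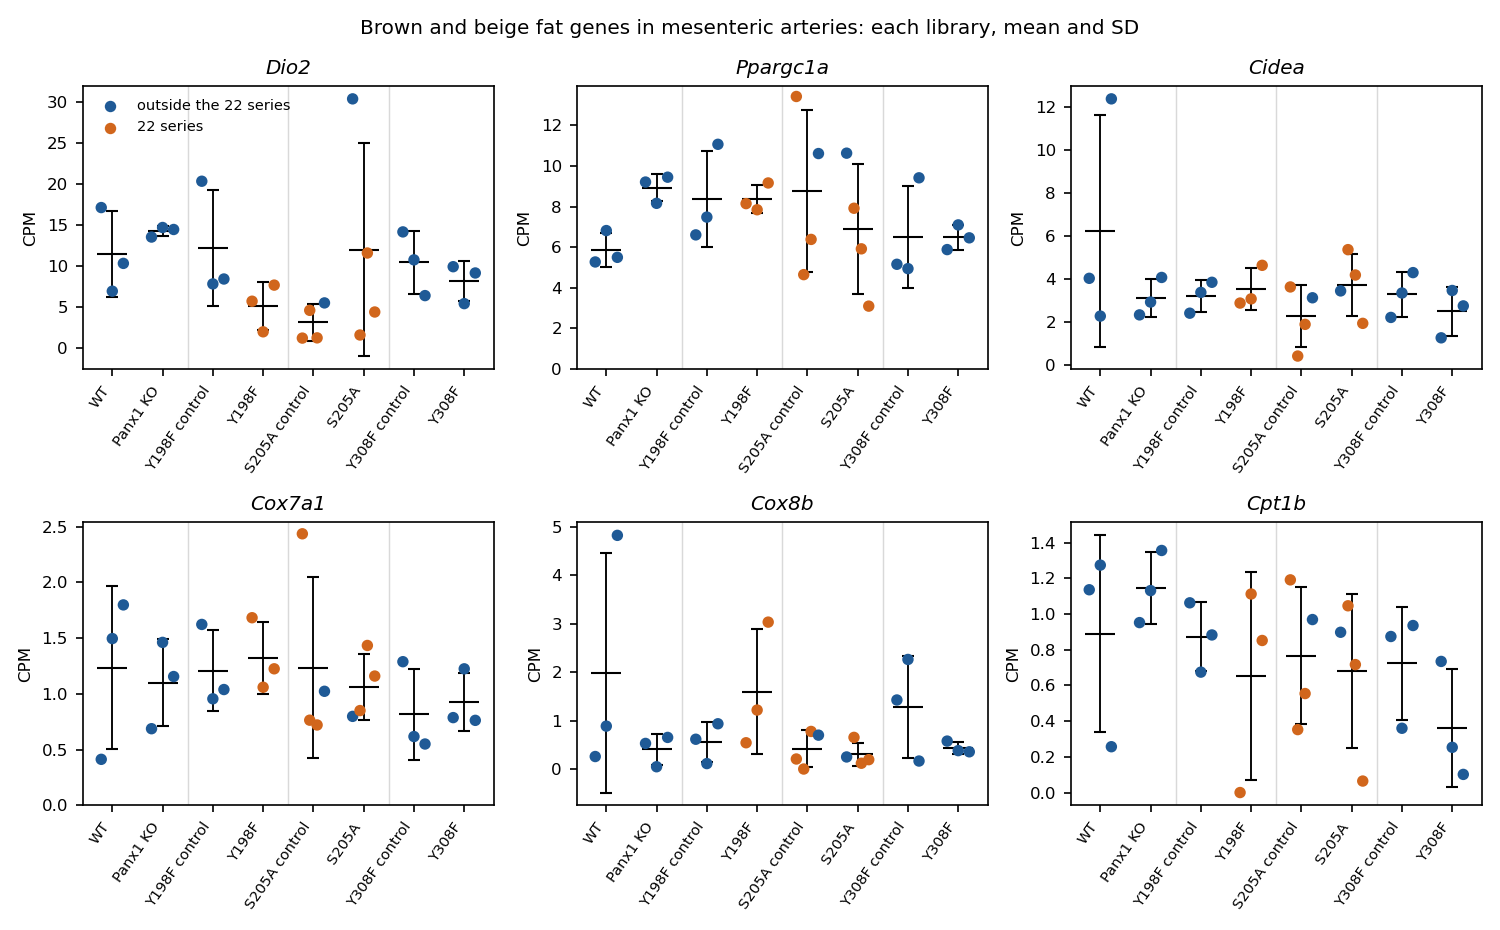
CPM of the 6 detected genes in each of the 26 libraries (points, orange for the 22 series and blue for the others), with the mean and SD of each of the 8 groups; grey lines part the 4 lines of mice. WT 3 stands highest for Cidea (12.4) and Cox8b (4.83), and S205A 1 stands highest for Dio2 (30.4).

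In the Panx1 KO comparison, none of the 6 members that passed the filter on low counts was called at an adjusted p under 0.05 (edgeR's quasi-likelihood test, Benjamini-Hochberg over all 16193 genes tested). The background is sparse, as 0.0309% of all genes (5) were called and 1817 genes, 1 of them a member (Ppargc1a), had an unadjusted p under 0.05. Panx1, the gene knocked out, was itself not called by this edgeR test (log2 fold change -2.17, SE 0.388, adjusted p = 0.250), though its groups did not overlap. The lack of calls therefore does not show that the members were unchanged. DESeq2 called 0 members, beside 0.671% of the 15941 genes to which it gave an adjusted p. Ppargc1a was the only member whose groups did not overlap, which was so for 18.5% of all genes. It read 9.21, 8.16 and 9.45 CPM in Panx1 KO 1, 2 and 3 and 5.27, 6.82 and 5.50 CPM in WT 1, 2 and 3. Every knockout library was above every WT library, a log2 fold change of 0.63 (SE 0.197, 95% interval 0.19 to 1.07, adjusted p = 0.344). An exact two-sided permutation test over the 6 libraries gave p = 0.1, the smallest that 3 against 3 allows.

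Cidea and Cox8b in this comparison turned on 1 library. Cidea was at 4.03, 2.27 and 12.4 CPM in WT 1, 2 and 3 and at 2.33, 2.92 and 4.07 CPM in Panx1 KO 1, 2 and 3. The groups overlapped, with a log2 fold change of -0.98 (SE 0.606, adjusted p = 0.599), and of 0.0030 without WT 3. Cox8b was at 0.258, 0.887 and 4.83 CPM in the WT libraries and at 0.529, 0.0472 and 0.653 CPM in the knockouts. Its log2 fold change was -2.26 (SE 1.16, adjusted p = 0.521), and -0.46 without WT 3. With no filter on low counts Cox8b was called (-2.23, adjusted p = 0.0440 by edgeR), as were 0.821% of the 29588 genes then tested. WT 3 had a summed white adipocyte level of 5435 CPM, against 1515 to 1958 in WT 1, WT 2 and the highest knockout library, and the part of that difference in these values was not tested.

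Dio2, Cpt1b and Cox7a1 showed log2 fold changes of 0.34 (SE 0.288), 0.39 (SE 0.596) and -0.14 (SE 0.593) in the knockout, with adjusted p from 0.706 to 0.953. Dio2 was tight in the knockouts, at 13.5, 14.7 and 14.5 CPM, and spread in WT, at 17.2, 6.93 and 10.3 CPM. Elovl3 and Ucp1 were too low for the test. The median log2 fold change of the 6 tested members was 0.10, beside 0.0052 over all genes tested.

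In the Y198F comparison, 0 of 6 tested members were called by edgeR, while 15% of 16050 genes were, with 4663 genes at an unadjusted p under 0.05 (0 of the members). DESeq2 called 1 member, Dio2, beside 13.2% of the 19759 genes to which it gave an adjusted p. Dio2 was at 5.70, 1.96 and 7.67 CPM in Y198F 1, 2 and 3 and at 20.4, 7.82 and 8.42 CPM in their controls 1, 2 and 3. The groups did not overlap, as for 34.2% of all genes. The log2 fold change was -1.26 (SE 0.602, adjusted p = 0.236) by edgeR and -1.28 (adjusted p = 0.0259) by DESeq2. Without control 1 it was -0.67 (adjusted p = 0.444).

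The sign of Dio2 in Y198F changed with the controls used. All 3 Y198F libraries are of the 22 series and none of their controls are. With series added to a model of the 8 groups, the log2 fold change was 0.64 (adjusted p = 1.00), and against S205A controls 1 to 3, which are of the 22 series, it was 1.13 (adjusted p = 1.00). In the authors' deposited table for Y198F it is 0.70 (adjusted p = 0.906). The fold changes in that table differ by at most 0.000160 from a fit of Y198F against all 4 S205A controls, and by up to 7.51 from one against the Y198F controls.

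Cox8b was at 0.543, 1.22 and 3.04 CPM in Y198F and at 0.616, 0.112 and 0.935 CPM in the controls. The groups overlapped, with a log2 fold change of 1.50 (SE 0.790, adjusted p = 0.240). Y198F 3, its highest library, also had the highest summed white adipocyte level of the 22 series, 4367 CPM, and without it the log2 fold change was 0.66 (adjusted p = 0.679). Ppargc1a was level, at 8.14, 7.84 and 9.16 CPM against 6.60, 7.48 and 11.1, a log2 fold change of -0.01 (SE 0.231). Cidea (0.13), Cox7a1 (0.13) and Cpt1b (-0.42) had adjusted p of at least 0.806. The median over the tested members was 0.06, beside -0.0028 over all genes.

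In the S205A comparison, 0 of the 5 members tested were called, and 0% of 15709 genes were (451 had an unadjusted p under 0.05, none a member). DESeq2 called 0 members, beside 0.196% of 20448 genes. Dio2 had the largest log2 fold change, 1.94 (SE 0.874, 95% interval -0.03 to 3.92, adjusted p = 1.00). It was at 30.4, 1.57, 11.6 and 4.38 CPM in S205A 1 to 4 and at 1.19, 4.59, 1.22 and 5.49 CPM in S205A controls 1 to 4. The groups overlapped widely, because S205A 2 and S205A 4 each lay below 2 of the controls. Without S205A 1 the log2 fold change was 0.91. Groups without overlap made up 1.77% of all genes, and no member was among them.

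Cidea was at 3.44, 5.36, 4.18 and 1.93 CPM in S205A and at 3.63, 0.412, 1.89 and 3.12 CPM in the controls, a log2 fold change of 0.72 (SE 0.573). S205A control 2, at 7 counts, was the lowest library for Cidea in the whole set. Ppargc1a spread more in this line than in any other. Its CPM was 10.6, 7.92, 5.92 and 3.09 in S205A and 13.4, 4.64, 6.38 and 10.6 in the controls, a log2 fold change of -0.35 (SE 0.418). It was -0.063 without S205A control 1, the library with the lowest endothelial sum (920.3 CPM) and the highest smooth muscle sum (38325 CPM) of the 26; the part of that in the value was not tested. Cox7a1 (-0.22) and Cpt1b (-0.17) lay near 0, and Cox8b did not pass the filter (exact permutation p = 0.829). The median over the 5 tested members was -0.17, beside -0.013 over all genes.

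In the Y308F comparison, 0 of 6 tested members were called, again beside 0% of 16037 genes, with 706 genes and no member at an unadjusted p under 0.05. DESeq2 called 0 members, beside 0% of 29461 genes. Cox8b was at 0.577, 0.380 and 0.356 CPM in Y308F and at 1.43, 2.26 and 0.165 CPM in the controls. Control 3 lay below all mutants, and the log2 fold change was -1.54 (SE 0.794, adjusted p = 0.940). Y308F control 2, the highest of the 6, had the highest summed white adipocyte level of this line, 3571 CPM, and without it the log2 fold change was -0.87.

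Cpt1b was at 0.735, 0.253 and 0.102 CPM in Y308F and at 0.874, 0.360 and 0.936 CPM in the controls, a log2 fold change of -0.99 (SE 0.759). It was -1.96 without Y308F 1 and -0.54 without Y308F 3. These are 2 to 14 counts a mutant library. Cidea (-0.38), Dio2 (-0.35), Cox7a1 (0.18) and Ppargc1a (0.01) lay closer to 0. The share of all genes without overlap between the groups was 10.7%, and no member was among them. The median over the 6 tested members was -0.36, beside -0.025 over all genes.

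**Figure D3:**
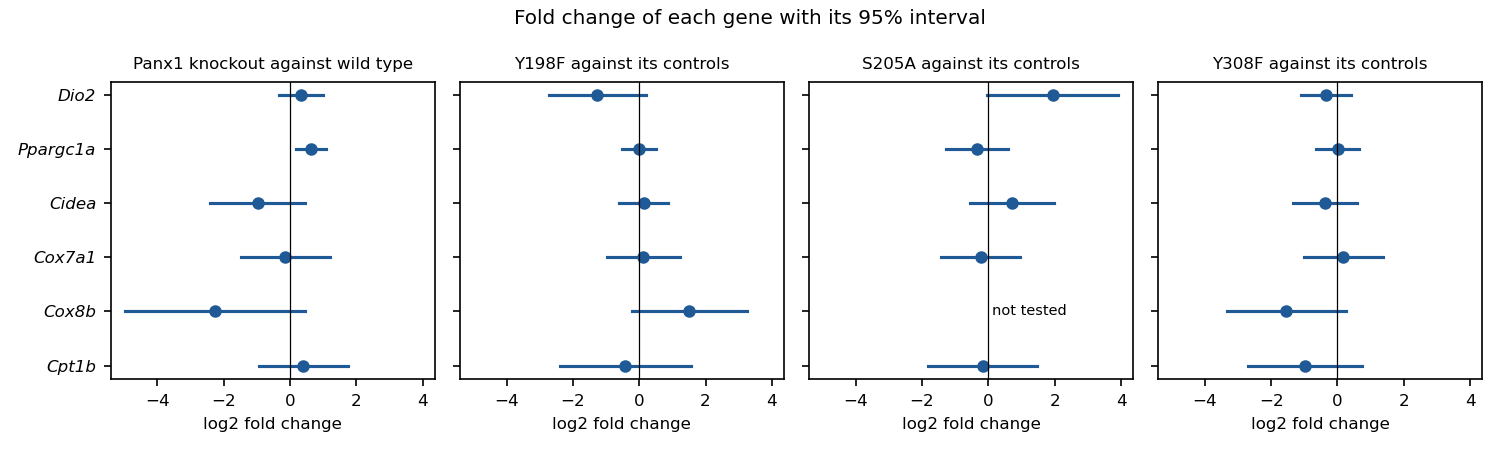
Log2 fold change of each gene, mutant over control, with its 95% interval from edgeR, in the 4 comparisons; Cox8b was not tested in S205A. Ppargc1a in the Panx1 KO comparison (0.63) is the only interval that leaves out 0.

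The effects of the 4 mutations were also set against each other in 1 fit of all 26 libraries. Over 6 pairs of effects, 0 members were called by edgeR, beside the shares called among all 18715 genes. Of those, 0.577% were called for Panx1 KO against Y198F, 0.0107% for Panx1 KO against S205A and again against Y308F, 0.016% for Y198F against S205A, and 0% for Y308F against Y198F and against S205A. The largest gap by its unadjusted p was that of Dio2 between Y198F and S205A, a log2 difference of -3.21 (SE 1.04, adjusted p = 0.123). With the series as a term it was -1.02 (adjusted p = 1.00). A further 3 differences had an unadjusted p under 0.05: Cox8b between Panx1 KO and Y198F (-3.78, adjusted p = 0.171), Cidea between Panx1 KO and S205A (-1.72, adjusted p = 0.870) and Dio2 between S205A and Y308F (2.31, adjusted p = 1.00). Leaving out single libraries gave 0 calls but for S205A control 4, without which there was 1.

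Between the library series, Dio2 was the only member called, beside 11.7% of 18715 genes. The coefficient of the 22 series in the fit of all groups was -1.89 on the log2 scale (SE 0.600, 95% interval -3.15 to -0.63, adjusted p = 0.0471). It rests on the S205A line, where Dio2 was at 5.49 CPM in the control outside the series against 1.19, 4.59 and 1.22 inside, and at 30.4 CPM in the S205A library outside against 1.57, 11.6 and 4.38 inside. In each group the library outside the series was the highest. The call was lost without any of S205A controls 1, 3 or 4 or S205A 1, 2 or 4, with adjusted p from 0.0112 to 0.479 over the 8 libraries left out in turn. Ppargc1a had a coefficient of -0.65 (SE 0.323, adjusted p = 0.210), called only without S205A control 1 (-0.93, adjusted p = 0.0290).

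The 12 white adipocyte genes, led by Plin4, summed to a median of 1420 CPM and ran from 782 to 5435 CPM. Their ranges were unlike. Plin4 ran from 363 to 881 CPM and Pnpla2 from 105 to 369, whereas Adipoq ran from 3.29 to 271 and Plin1 from 3.87 to 302. The sum thus spans less than Adipoq or Plin1 alone. In bulk tissue, fewer adipocytes and less RNA per adipocyte cannot be told apart. Cox8b followed this sum. Over the 17 libraries outside the 22 series, log2 CPM of Cox8b and of the sum had Pearson's r of 0.889 (permutation p = 2e-05 from 100000 permutations; adjusted over 24 relations 0.00048) and Spearman's rho of 0.828 (permutation p = 0.0001, adjusted 0.0024). Without the 2 libraries farthest from the median, r was 0.744 (adjusted p = 0.0394).

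Over the 9 libraries of the 22 series, r for Cox8b was 0.844 (exact permutation p = 0.0044, adjusted 0.0528) and rho 0.833 (exact permutation p = 0.00827, adjusted 0.0992). Without the 2 farthest libraries r was 0.517 over 7, so there the relation rests in part on those. Among 12906 genes compared, 0.333% had an r at least as high outside the series and 0.705% inside. These genes had a mean log2 CPM of at least 1, a level Cox8b did not reach, and genes of the sum itself were not taken out. The 3 libraries with the highest sums, WT 3 (5435 CPM), Y198F 3 (4367) and Y308F control 2 (3571), were also the 3 highest for Cox8b, at 4.83, 3.04 and 2.26 CPM.

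The other members did not follow white fat past the threshold. Cidea had r of 0.394 outside the series and 0.563 inside (permutation p = 0.12, exact permutation p = 0.13, both 0.457 adjusted), and outside it was -0.33 without the 2 farthest libraries, 1 of which is WT 3. Ppargc1a had r of -0.441 and 0.429, Cpt1b -0.254 and 0.552, Cox7a1 0.194 and -0.0642, and Dio2 -0.0699 and -0.0800, with adjusted p of at least 0.455. Of the 12 relations with white fat, 1 passed.

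**Figure D4:**
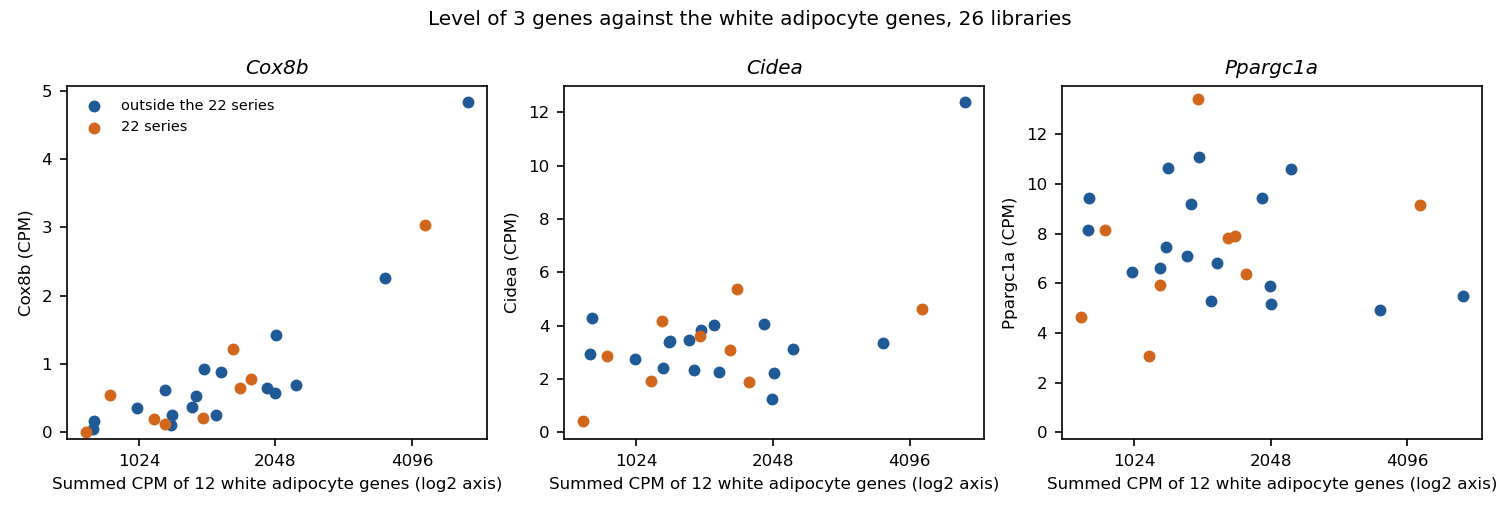
CPM of Cox8b, Cidea and Ppargc1a in 26 libraries against the summed CPM of 12 white adipocyte genes on a log2 axis; blue points are outside the 22 series and orange points inside. Cox8b climbs with the sum in both (r of 0.889 and 0.844), Cidea has 1 library, WT 3, far above the rest, and Ppargc1a shows no common direction (r of -0.441 and 0.429).

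Since Cox7a1, Cox8b and Cpt1b are also genes of striated muscle, markers of that tissue were read too. The 12 striated muscle genes summed to only 17.1 to 95.3 CPM, led by Acta1 with a mean of 26.6 CPM. Myh4 and Myh7, defining myosins of fast and slow fibres, were at 0 in all libraries, and Myh1, Myh2, Tnni2 and Mb had 50 counts or fewer in all. None of the 12 relations between the 6 members and this sum passed the threshold, with r between -0.663 and 0.180 and adjusted p of at least 0.455. Acta1 had a median of 23.9 CPM and the sum one of 30.7, so these relations are mostly relations with Acta1.

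Members did not move as a block. Over the 17 libraries outside the 22 series the highest correlation between 2 members was that of Ppargc1a and Cpt1b, with r of 0.388, and it was 0.526 over the 9 inside. Cidea and Cox8b had r of 0.327 and 0.604. Cox8b and Ppargc1a had r of -0.402 outside and 0.448 inside, and Dio2 had no partner above 0.307 outside the series. These are descriptions over libraries that share groups, with no test.

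For Dio2, Cidea and Ppargc1a, the 3 genes most like them by Pearson's r outside the 22 series were listed, among 12906 genes. Those nearest to Dio2 were Adamts2 (0.845), a protease that trims procollagen, Ptgfrn (0.810), a regulator of the prostaglandin F receptor, and Mfap4 (0.787), a protein of elastic fibres. Inside the series, which did not choose them, they had r of 0.769, 0.818 and 0.891. The nearest to Cidea were Pth1r (0.826), Ube2d-ps (0.823) and Cfap68 (0.809), with 0.415, 0.204 and 0.566 inside. For Ppargc1a they were Yipf6 (0.858), 6820431F20Rik (0.853) and Rbak (0.840), with -0.349, 0.296 and -0.241 inside. Of these 9 genes, only the 3 neighbours of Dio2 kept r above 0.7 inside the series.

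The wider thermogenic lists are read against the shares of all genes that edgeR called, 0.0309% in Panx1 KO, 15% in Y198F and 0% in both S205A and Y308F. In Y198F the line and the series cannot be told apart. Of 21 brown identity genes, 11 to 14 were tested a comparison and 0 were called in any of the 4 by edgeR. Their median log2 fold change was -0.19 in Panx1 KO, 0.35 in Y198F, 0.10 in S205A and -0.36 in Y308F. Unadjusted p-values under 0.05 numbered 0, 1, 1 and 0, beside 1817, 4663, 451 and 706 among all genes.

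Of 15 genes of fatty acid oxidation, 14 were tested in each comparison, and in Y198F 2 rose and 0 fell, near the 15% of all genes called there. These were Acaa2, a thiolase of mitochondrial beta-oxidation (log2 fold change 0.56, SE 0.138, adjusted p = 0.0199), and Cpt1a, which feeds that pathway (0.57, SE 0.129, adjusted p = 0.0135). The list's median was 0.28 in Y198F, -0.24 in Panx1 KO, 0.03 in S205A and -0.23 in Y308F, and no gene of it was called in these 3 other comparisons (4, 0 and 1 had an unadjusted p under 0.05).

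Of 18 paralogs of the members, 13 were tested a comparison. In Y198F, where 15% of all genes were called, 5 rose and 0 fell: Cox8a (0.57, SE 0.0978, adjusted p = 0.00334), Cpt1a, which the oxidation list holds too, Cpt1c (0.49, adjusted p = 0.0444), Elovl1 (0.46, adjusted p = 0.0362) and Cox7a2 (0.37, adjusted p = 0.0465). In the other 3 comparisons 0 paralogs were called, with 1, 0 and 0 at an unadjusted p under 0.05, and Cox8a had a log2 fold change of -0.44 (adjusted p = 0.301) in Panx1 KO.

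Markers of the cell types in the vessel bed were read beside these values. No white adipocyte gene was called in any comparison by edgeR, with 1, 1, 0 and 0 at an unadjusted p under 0.05. Of the 12, 0 were higher in Panx1 KO (median log2 fold change -1.25), 12 in Y198F (0.98), 1 in S205A (-0.42) and 2 in Y308F (-0.51). The sum ran from 810 to 1958 CPM in Panx1 KO and from 1515 to 5435 in WT, and from 882 to 4367 in Y198F and from 1170 to 1423 in its controls. In Y198F, smooth muscle genes Tagln (1.14, adjusted p = 0.00361) and Smtn (0.54, adjusted p = 0.0164) and endothelial genes Nos3 (0.62, adjusted p = 0.0135) and Tie1 (0.39, adjusted p = 0.0344) rose too, 2 of 6 in each list, beside 15% of all genes called. No smooth muscle, endothelial or striated muscle gene was called in the other 3 comparisons. The part of these cell types in the members' values was not tested.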

How the data were processed

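Per the labels' protocols, poly(A) RNA of mesenteric arteries was sequenced as paired reads of 150 bases. Mapping used STAR 2.7.9a on GRCm39 and counting used featureCounts (Rsubread 2.20.0), per the submitters' processing notes and the series' design text; the annotation release and the use of strand are not given in the sources used here. The counts deposited by the authors are whole numbers per Ensembl gene, not normalized. The deposited normalized table holds a signal, the counts divided by 1 factor per library, tested on its values. The authors' deposited tables of 4 comparisons (DESeq2 1.46.0, per the submitters' processing notes) hold a base mean signal, log2 fold changes with standard errors, a test score and p-values. Every column of per-sample values was mapped to a sample.

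Computed here: edgeR 4.0.16 (R 4.3.3) quasi-likelihood tests on the deposited counts, with TMM, filterByExpr, robust dispersion and only the groups compared, adjusted by Benjamini-Hochberg over all genes tested, at a threshold of 0.05. CPM used TMM factors over all 26 libraries, and log2 CPM a prior count of 2. Effects of lines and of the library series were tested in 1 fit of all libraries. Correlations were computed within each series with permutation p-values over 24 relations. Shares carry Wilson 95% intervals, and the floor was 3 counts. The script was tested on simulated data with changes set only in more abundant genes. Of genes given a log2 change of 1, 72% were called in the Panx1 KO setting and 56% in that of S205A. In these settings 20 and 8 unchanged genes were called as well. The simulation does not cover members as low as Cox8b, Cpt1b and Cox7a1. Positions and exon lengths come from GENCODE vM39, in which 56310 of 57010 identifiers matched. Alternatives were DESeq2 1.42.0, DESeq2 size factors, no filter, all 8 groups together, the replicate number as a block, the series as a term, other controls for Y198F, other prior counts and each library left out.

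The members, the lists (brown identity, fatty acid oxidation, futile cycles, paralogs, white adipocyte, striated muscle, smooth muscle, endothelium) and the tests were chosen with earlier results of these data known. Named genes are all members, the 3 genes most like each member with a mean log2 CPM of at least 0 (those of Cox7a1 are not reported here), up to 4 called genes of each list with the largest change, the leading and undetected genes of cell type lists, and Panx1. Genes named for context, among them the paralogs, Prdm16, Lhx8, Fgf21, Ebf2, Tbx1, Tmem26, Epsti1, Cited1, Tnfrsf9 and Adrb3, were chosen after their values were seen.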

Additional observations from a re-analysis of the deposited data

How the results depend on the processing

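Most results kept their direction and side of the threshold: of the values under alternatives, 497 were the same, and 42 changed sign, all of them below the threshold before and after. Another 5 values came past the threshold, 8 fell back from it, and 12 counts of calls moved. Without the filter on low counts, 1 member was called in Panx1 KO, Cox8b (-2.23, adjusted p = 0.0440), and 0 between library series, where Dio2 was at -1.92 (adjusted p = 0.0958). DESeq2 called 1 member in Y198F, Dio2 (-1.28, adjusted p = 0.0259). In only the 8 libraries of the S205A line, 0 members were called between series (Dio2 -1.88, adjusted p = 0.199). Leaving out single libraries, chosen after seeing the data for this and for the differences between lines, gave 0 to 1 calls between series, with Dio2 from -2.39 to -1.26, and 0 to 1 calls among the differences.

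In Y198F, the series term moved Dio2 to 0.64, Ppargc1a to 0.65, Cpt1b to 0.10 and Cox7a1 to -0.30, and the S205A controls of the 22 series moved Dio2 to 1.13 and Ppargc1a to 0.038. Correlations of same-numbered deviations ran from -0.441 to 0.437, with no common sign. So few libraries a group cannot settle whether the replicate numbers pair the samples. With the number as a replicate block, 0 members were called in each line by edgeR. Dio2 in Y198F was then -1.31 (adjusted p = 0.0636), and Ppargc1a in Y198F changed sign to 0.023. In Y308F, Ppargc1a was -0.0028 with all 8 groups in 1 fit.

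Signs changed without single libraries for Cidea (-1.38 to 0.0030), Cpt1b (-0.048 to 0.74) and Cox7a1 (-0.56 to 0.23) in Panx1 KO, for Cidea (-0.11 to 0.27), Ppargc1a (-0.15 to 0.24), Cpt1b (-1.04 to 0.16) and Cox7a1 (-0.087 to 0.40) in Y198F, for Cpt1b (-0.44 to 0.21) and Cox7a1 (-0.41 to 0.34) in S205A, for Ppargc1a (-0.16 to 0.37) and Cox7a1 (-0.060 to 0.68) in Y308F, and for Cidea (-0.66 to 0.14) and Cox8b (-1.19 to 0.35) between series.

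Among correlations, 2 relations with white fat passed with a prior count of 5 (Cox8b inside the series 0.866) and 2 with deviations from group means (Cox8b inside 0.883), where Dio2 outside became 0.178 for white fat and 0.0109 for striated muscle. Without the 2 farthest libraries, outside the series Cidea became -0.33 and Cpt1b 0.233 for white fat, and inside it Cidea became 0.492, Ppargc1a 0.225 and Cpt1b 0.151 for striated muscle. With Acta1 left out of the striated list, chosen after seeing the data, Cidea became 0.378, Dio2 0.130 and Cpt1b -0.0167 outside and Dio2 -0.0538 inside. The cause of these changes was not tested. Cox8b, Cpt1b and Cox7a1 had under 30 counts in most libraries, and the part of depth in their values was not tested.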

Other observations

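Heat can also be made without Ucp1, by cycles that spend ATP on creatine phosphate or on calcium pumping. Of 10 genes of such cycles, 8 were tested in Panx1 KO, Y198F and Y308F and 7 in S205A. In Y198F, where edgeR called 15% of all genes, 1 rose and 1 fell. Ckb, the creatine kinase of the creatine cycle, rose (log2 fold change 0.63, SE 0.166, adjusted p = 0.0260), and Gatm, which makes the creatine precursor, fell (-1.05, SE 0.284, adjusted p = 0.0300). In the other 3 comparisons 0 were called, with 0, 1 and 0 at an unadjusted p under 0.05 in Panx1 KO, S205A and Y308F, and Gatm in S205A was 1.19 (SE 0.493, adjusted p = 1.00). Atp2a2, the calcium pump of smooth and slow muscle, was the most abundant of the list at a mean of 801 CPM. Y198F libraries and their controls differ in library series, and the mutation and the series cannot be told apart there.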
